A study of Mus musculus with 6 samples.

Results

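The TCF factors and the core of the beta-catenin pathway were followed as 10 genes, of 35905 genes to which the measured transcripts were assigned. They are the DNA-binding factors Tcf7, Tcf7l1, Tcf7l2 and Lef1, beta-catenin itself (Ctnnb1), the scaffolds Axin1, Axin2 and Apc, and the membrane ubiquitin ligases Rnf43 and Znrf3. The set was chosen to put Tcf7, which had been seen to differ between the 2 cell lines, beside Axin2, which had been seen not to. The members' differences between the lines are therefore descriptions, and how many of them passed in the fit across all genes is counted only beside the share of all genes, with nothing read from it.

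RNA was sequenced from 2 mouse breast cancer cell lines, EO771-tdT-Parental and EO771-tdT-LM2, called Parental and LM2 here, with 3 libraries each. The titles of the Parental libraries also carry the tag Ac6, which those of LM2 lack and whose meaning the labels do not give. EO771 is a mouse mammary tumour line, both lines carry the tdT tag, and the genotype is given as WT for both. All cells were grown for 48 h to about 75% confluence in RPMI 1640 containing fetal bovine serum at 10%, with no treatment named. The labels do not say how LM2 was derived or whether the 3 libraries of a line came from separate cultures. The spread between libraries, on which every p-value rests, may therefore be technical, and each line stands for itself alone. Libraries held between 33922699 and 45849019 estimated read counts. Of 12 mammary epithelium markers, Krt8 was at 419.65 and 567.92 CPM (counts scaled to library size) in Parental and LM2. Epcam was at 0.154 and 15.0 CPM, Krt14 at 1.11 and 8.47 CPM and Esr1 at 0.537 and 0.187 CPM. The remaining markers stayed below 1 CPM, with Krt18, Krt19 and Cdh1 near 0 in both lines.

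In the canonical Wnt pathway a complex of axin, APC and kinases marks beta-catenin for destruction. A Wnt signal at the cell surface halts that complex, and beta-catenin then enters the nucleus and binds TCF/LEF proteins, which sit on DNA through a high mobility group (HMG) box and otherwise repress their targets with partners of the TLE family. Axin2, Rnf43, Znrf3, Lef1 and Tcf7 itself are textbook targets that feed back on the pathway, Axin2 being the one most often read as its gauge.

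The HMG box is what the 4 factors share and what their transcripts could be confused over, so a like coding exon is shown for each. The exon was picked by length and identity, and the bounds of the box were not located in it. Only exons of the same length in all 4 genes were compared, so the shared length of 108 bases was set by that choice. Among them, the exon with the highest mean identity to Tcf7 was kept. Sequences are from the GRCm38 genome with GENCODE M21 exons, 5′ to 3′ along the gene, and capitals mark bases that differ from Tcf7.
Tcf7 (Tcf7-201, exon 8) chr11:52256740-52256847, minus strand: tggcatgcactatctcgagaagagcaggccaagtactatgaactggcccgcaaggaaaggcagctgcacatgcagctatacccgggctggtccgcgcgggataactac
Tcf7l1 (Tcf7l1-201, exon 10) chr6:72631012-72631119, minus strand: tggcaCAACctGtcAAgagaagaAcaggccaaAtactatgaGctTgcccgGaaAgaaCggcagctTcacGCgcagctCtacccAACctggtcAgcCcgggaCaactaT
Tcf7l2 (Tcf7l2-201, exon 10) chr19:55919511-55919618, plus strand: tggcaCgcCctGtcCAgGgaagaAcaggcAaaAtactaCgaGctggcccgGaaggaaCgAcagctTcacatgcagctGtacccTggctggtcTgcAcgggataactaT
Lef1 (Lef1-201, exon 9) chr3:131200295-131200402, plus strand: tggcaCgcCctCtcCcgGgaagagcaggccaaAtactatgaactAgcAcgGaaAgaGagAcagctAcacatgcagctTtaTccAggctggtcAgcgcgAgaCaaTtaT
Tcf7l1 differed from Tcf7 at 25 of the 108 bases (76.9% identity), Tcf7l2 at 20 (81.5%) and Lef1 at 21 (80.6%). The longest unbroken identical run was 8 bases for Tcf7l1, 11 for Tcf7l2 and 14 for Lef1. The read assigner used by the authors matches words of 31 bases by default, and none of the 4 genes shared a 31-base word with another of them in any annotated transcript. Tcf7 shared none of its 2594 words with any other gene.

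Tcf7, which encodes the factor TCF1, had the widest difference between the lines of the 10 genes. Its length-scaled level, TPM, was 7.35, 8.10 and 7.55 in the Parental libraries and 49.9, 50.1 and 47.9 in the LM2 libraries. Each LM2 library lay above every Parental library, and the gap between the lines was many times the spread within either one. In depth-scaled units its mean level was 10.7 ± 0.569 CPM in the Parental libraries and 67.5 ± 1.97 CPM in those of LM2 (SD, n = 3 libraries each). The fitted difference was 2.65 ± 0.05 on the log2 scale (estimate ± SE of the edgeR fit), a 6.29-fold higher level in LM2. It rested on 468, 413 and 426 estimated counts in Parental and 2383, 2300 and 2490 in LM2. Among the 13247 genes with enough counts to test, Tcf7 moved from rank 8665 by abundance in Parental to rank 3769 in LM2, and 278 genes had a larger rise. Because the libraries are from bulk cultures, a change in the number of expressing cells and a change in RNA per cell cannot be told apart.

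T lymphocytes are the cell type best known for Tcf7, so 15 of their marker genes were read alongside. The summed level of that list was 8.04 to 9.69 CPM in the Parental libraries and 3.71 to 4.53 CPM in the LM2 libraries. That gap was 1 gene, Bcl11b, since the other 14 markers summed to 3.31 to 3.94 CPM in Parental and 3.59 to 4.43 CPM in LM2, with overlap. The pan-leukocyte gene Ptprc had mean levels of 0.0651 and 0.0745 CPM (Parental, LM2), and the T cell receptor subunit Cd3e of 0.0147 and 0.0195 CPM. Cd7 had no count in any library. Of the 3 markers with enough counts to test, the kinase Lck (2.39 and 2.46 CPM) and the receptor subunit Cd3d (0.573 and 0.601 CPM) did not pass. The transcription factor Bcl11b was lower, with 5.23 ± 0.728 CPM against 0.142 ± 0.0529 CPM in LM2 (edgeR with Benjamini-Hochberg adjustment, adjusted p = 9.41e-14).

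**Figure D1:**
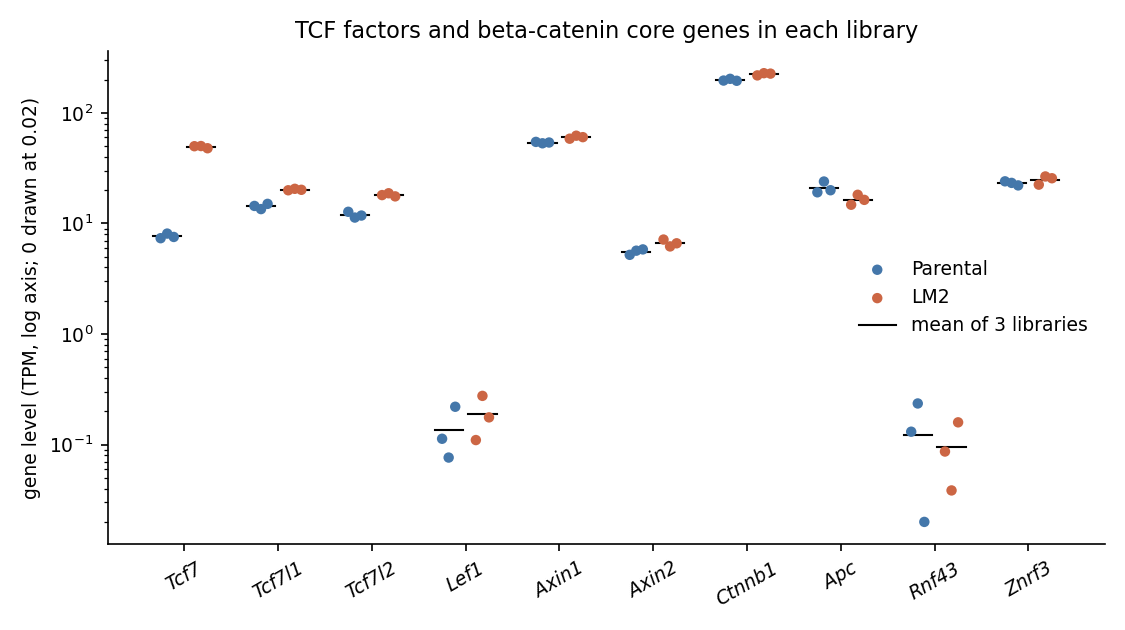
Level of each of the 10 genes in every library, in TPM on a log axis, with Parental libraries in blue, LM2 libraries in orange and a line at the mean of 3 libraries (the Rnf43 library at 0 is drawn at 0.02). Tcf7 stands at 7.35 to 8.10 TPM in Parental and 47.9 to 50.1 TPM in LM2, while the other 9 genes lie close to their own level in the other line or near the bottom of the axis.

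Tcf7l1 encodes TCF3, the family member best known as a repressor. It was at 14.4, 13.5 and 15.0 TPM in Parental and 20.0, 20.6 and 20.1 TPM in LM2. All 3 LM2 libraries were above all 3 Parental libraries, by a log2 difference of 0.46 ± 0.05, or 1.38-fold. Its annotated transcripts Tcf7l1-201 and Tcf7l1-202 were higher in LM2 by nearly the same ratio of TPM, 1.40 and 1.41. The gene kept its makeup while its level differed.

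Tcf7l2 encodes TCF4 (the TCF/LEF factor, not the gene Tcf4). It was at 12.7, 11.3 and 11.8 TPM in Parental and 18.0, 18.8 and 17.6 TPM in LM2, again without overlap. The log2 difference from summed counts was 0.49 ± 0.05, or 1.41-fold. Tcf7l2 has 22 transcripts in the files, of which 8 reached 1 TPM in at least 1 library and 2 did so in all 6. The leading one, Tcf7l2-201, made up 26.8% of the gene's Parental TPM and ranged from 2.17 to 5.01 TPM within the Parental line alone. The gene's sum therefore varied less between libraries than its leading transcript did.

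Lef1, the remaining family member, was close to silent. It had 12, 6 and 21 estimated counts in Parental and 9, 21 and 15 in LM2, or 0.113, 0.0764 and 0.220 TPM against 0.110, 0.276 and 0.176 TPM. The lines overlapped, and the log2 difference of 0.41 ± 0.45 was smaller than its own error. It ran from 0.04 without LM2 library 2 to 0.95 without Parental library 3. Of the gene's Parental TPM, 82.3% was assigned to Lef1-205, a transcript annotated as a retained intron, and 14.6% of the 31-base words of Lef1 also occurred in other genes.

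The 4 factors together summed to 34.6, 33.0 and 34.6 TPM in Parental and 88.0, 89.7 and 85.8 TPM in LM2. Tcf7 made up 21.2, 24.6 and 21.8% of that sum in Parental and 56.7, 55.9 and 55.8% in LM2. It was the least abundant of the 3 well-expressed factors in every Parental library and the most abundant in every LM2 library. Tcf7l1 led in Parental with 40.9 to 43.5% of the sum and held 22.7 to 23.5% in LM2. Tcf7l2 held 34.1 to 36.8% in Parental and 20.5 to 20.9% in LM2. Both of those shares were smaller in LM2 although the levels of both genes were higher there. Lef1 stayed under 1% of the sum in all 6 libraries, at 0.125 to 0.636%.

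**Figure D2:**
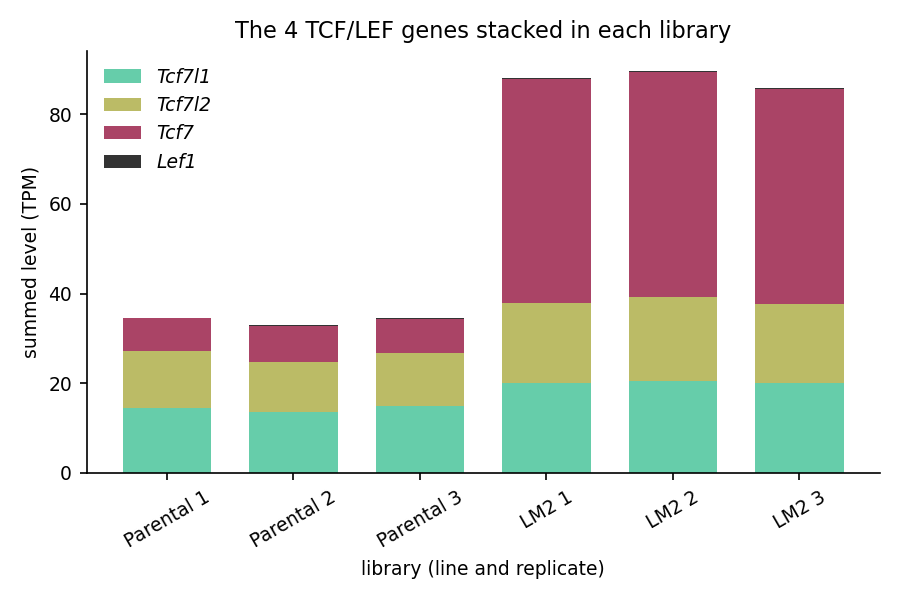
Summed TPM of the 4 TCF/LEF genes in each library, stacked by gene on an axis from 0. The LM2 bars reach 85.8 to 89.7 TPM and most of their height is Tcf7, while the Parental bars end at 33.0 to 34.6 TPM and most of their height is Tcf7l1 and Tcf7l2.

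Axin2 is the scaffold gene that the pathway switches on to restrain itself. Counted per gene, it did not follow Tcf7. It had 11.2, 11.8 and 12.0 CPM in Parental and 12.3, 12.1 and 11.8 CPM in LM2, so the lines overlapped. The fitted log2 difference was 0.05 ± 0.07, a 1.03-fold difference that is within its error, and 88.3% of all tested genes had a larger absolute difference. The gene was measured at a depth like that of Tcf7 in Parental, with 407 to 510 estimated counts in each library.

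Scaled by transcript length, the same gene looked different. Axin2 was at 5.20, 5.67 and 5.82 TPM in Parental and 7.15, 6.20 and 6.61 TPM in LM2. Each LM2 library was thus above every Parental library, and the ratio of means was 1.20. The share of all genes without overlap was not computed by TPM, and by CPM it was 67.0% of those tested. With effective transcript lengths as an offset in the edgeR fit the log2 difference was 0.22, on log2(TPM + 1) it was 0.22, and in the authors' deposited table it was 0.23. The leading transcript alone gave a difference of -0.01, with overlapping lines. The statement that Axin2 is unchanged between the lines thus holds for summed counts and for its leading transcript, and not for summed TPM.

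The Axin2 transcripts locate that gap. Axin2-201, the leading transcript at 4260 bases, was at 3.84, 3.96 and 3.90 TPM in Parental and 3.85, 3.82 and 3.93 TPM in LM2, a ratio of 0.991. All other transcripts of the gene summed to 1.36, 1.72 and 1.92 TPM in Parental and 3.30, 2.38 and 2.68 TPM in LM2. The lines overlapped for the first quantity and did not for the second. The share of Axin2-201 in the gene's TPM was 67.0 to 73.8% in Parental and 53.8 to 61.7% in LM2. The largest of the others in each library was Axin2-204, a transcript of only 826 bases, at 1.17, 1.25 and 1.23 TPM in Parental and 2.62, 1.14 and 2.31 TPM in LM2. In LM2 library 2 Axin2-205 (0.655 TPM) and Axin2-202 (0.578 TPM, 2551 bases) made up the rest. The Axin2-204 values rested on 22.4, 19.0 and 21.0 estimated counts in Parental and 37.7, 15.6 and 36.3 in LM2. For Axin2-204, LM2 library 2 lay below all 3 Parental libraries. Axin2-203 was given 14.8 counts in LM2 library 1, and Axin2-202 was given counts in Parental library 3 (13.5) and LM2 library 2 (30.4) alone. At this depth the short Axin2 transcripts could not be ranked between the lines. Of the 31-base words of Axin2, 2.71% also occur in another gene, all of them in Gm11670.

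Tcf7 varied little with that choice. The files list 2 transcripts, Tcf7-201 of 2471 bases and Tcf7-202 of 2059 bases. Tcf7-201 was at 3.54, 3.95 and 3.51 TPM in Parental and 23.1, 23.6 and 21.8 TPM in LM2, a ratio of 6.23. Tcf7-202 was at 3.82, 4.15 and 4.04 TPM in Parental and 26.9, 26.5 and 26.1 TPM in LM2, a ratio of 6.62. Both transcripts were therefore higher in LM2 by about as much as the gene. The share of Tcf7-202 was 51.3 to 53.5% of the gene's TPM in Parental and 52.9 to 54.5% in LM2, with overlapping ranges.

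In the GENCODE M21 models the coding part of both Tcf7 transcripts starts in the same shared exon. Tcf7-201 has a first exon of its own of 18 bases and Tcf7-202 has exons of its own of 87 and 67 bases, so they differ at the start of the RNA, and Tcf7-201 also has the longer last exon (1592 against 727 bases). The split between them rests on the words found in only 1 of them. Counted in the M21 models, those are 882 of 2441 for Tcf7-201 and 153 of 1712 for Tcf7-202. The annotated Tcf7-202 is 1742 bases long in that release and 2059 in the files, and the added bases were not analysed here.

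**Figure D3:**
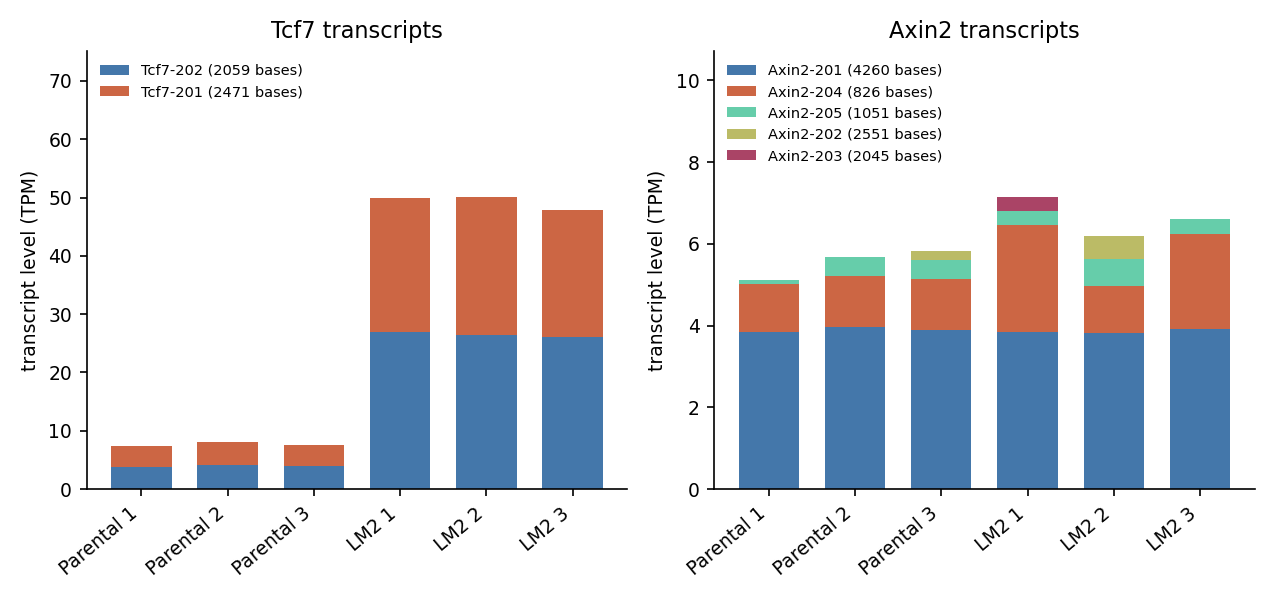
Transcript levels of Tcf7 (left) and Axin2 (right) in TPM, stacked in each library, for transcripts that reach 0.1 TPM in any library, with the length of each in bases in the key and a separate axis from 0 for each gene. Both Tcf7 transcripts are taller in every LM2 library, whereas the Axin2-201 segment stays between 3.82 and 3.96 TPM and the differences in Axin2 lie in the segments of other transcripts above it.

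Set against each other within a library, the level of Tcf7 was 1.41, 1.43 and 1.30 times that of Axin2 in Parental and 6.98, 8.09 and 7.24 times in LM2, by TPM. By CPM, which is not scaled for length, the ratio was 0.918, 0.965 and 0.882 in Parental and 5.62, 5.65 and 5.52 in LM2. The ratio separated the lines on either scale, which was set by pairing a gene chosen as different with one chosen as not different. Its value in a line depended on the scale.

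Axin1, the constitutively expressed axin of the destruction complex, was at 54.6, 53.1 and 53.9 TPM in Parental and 58.4, 62.2 and 60.3 TPM in LM2. The lines did not overlap, but the log2 difference was only 0.13 ± 0.03, or 1.09-fold. Axin1 thus stood well above Axin2 in length-scaled level in both lines, at means of 53.9 against 5.57 TPM in Parental and 60.3 against 6.65 TPM in LM2.

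Apc, the large scaffold of the same complex, was the only member that was lower in LM2 without overlap. It was at 97.1, 95.4 and 92.4 CPM in Parental and 76.1, 83.3 and 80.1 CPM in LM2, a log2 difference of -0.25 ± 0.03, or 1.19-fold lower in LM2. Summed TPM gave 19.1, 23.9 and 20.0 in Parental and 14.8, 18.2 and 16.3 in LM2, with a wider spread within each line. The longest transcript, Apc-202, was at 6.30, 6.17 and 5.89 TPM in Parental and 4.98, 4.44 and 5.27 TPM in LM2, also without overlap. The next longest, Apc-203 of 12346 bases, did overlap. It was at 3.9, 3.3 and 3.9 TPM in Parental and 3.1, 4.3 and 3.2 TPM in LM2, a ratio of means of 0.952. Apc-209 overlapped too, with a ratio of 0.921. Apc-206, a noncoding transcript of 435 bases, varied widely within the lines, at 2.98, 6.66 and 5.89 TPM in Parental and 2.81, 3.28 and 1.87 TPM in LM2. With length offsets the Apc difference was -0.39, and the authors' deposited table lists -0.38.

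Ctnnb1, which encodes beta-catenin, was the most abundant of the 10 genes. It was at 196, 203 and 195 TPM in Parental and 218, 228 and 226 TPM in LM2. All LM2 libraries were above all Parental libraries, by a log2 difference of 0.15 ± 0.02, or 1.11-fold. Ctnnb1-201 accounted for 95.3% of the gene's TPM in Parental, so the choice of transcript mattered little here. Of the 31-base words of Ctnnb1, 13.2% also occur in Ulk4, the gene that overlaps its locus, so reads there could be shared between the 2 genes.

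Znrf3 and Rnf43 encode ligases that remove Wnt receptors from the cell surface. Znrf3 was at 24.0, 23.3 and 22.1 TPM in Parental and 22.4, 26.6 and 25.6 TPM in LM2. The lines overlapped on both scales, and the log2 difference was 0.07 ± 0.03. Rnf43 was given 3, 2 and 0 estimated counts in the Parental libraries and 1, 3 and 3 in the LM2 libraries, fewer than the test requires. A library with 0 counts allows up to 3 counts, which is 0.0741 CPM in Parental library 3. A difference between Rnf43 levels this close to 0 could not be resolved at this depth. Of these targets of the pathway that code for ligases, 1 was well expressed and the other close to absent in both lines.

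Of the 10 members, 9 had enough counts to test. In the fit across all genes 6 of them passed an adjusted p of 0.05, 5 higher in LM2 (Tcf7, Tcf7l1, Tcf7l2, Axin1 and Ctnnb1) and 1 lower (Apc). Over all 13247 genes tested 62.4% passed, 31.4% higher and 31.1% lower, and since the members were chosen on this contrast nothing is read from their count. By CPM, 6 of the 10 had lines that did not overlap, 5 with LM2 above and 1 with LM2 below, against 67.0% of all tested genes, 33.4% above and 33.6% below. By size, 2.33% of tested genes had a larger absolute difference than Tcf7.

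Ordered by length-scaled level, the Parental line ran Ctnnb1, Axin1, Znrf3, Apc, Tcf7l1, Tcf7l2, Tcf7, Axin2, Lef1 and Rnf43. The ranges of Znrf3 and Apc overlapped there, as did those of Lef1 and Rnf43. In LM2 the order was Ctnnb1, Axin1, Tcf7, Znrf3, Tcf7l1, Tcf7l2, Apc, Axin2, Lef1 and Rnf43, with overlap between Tcf7l2 and Apc and between Lef1 and Rnf43. Tcf7 moved from place 7 to place 3, and Axin2 kept place 8.

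Across ways of summing, Tcf7l1, Tcf7l2, Axin1, Ctnnb1 and Znrf3 kept a positive difference and Apc a negative one. The difference of Tcf7l2 was 0.49 from summed counts, 0.56 with length offsets and 0.65 for its leading transcript. The authors' deposited table lists log2 values of 2.65 for Tcf7, 0.47 for Tcf7l1, 0.57 for Tcf7l2, 0.13 for Axin1, 0.15 for Ctnnb1 and 0.08 for Znrf3, and it does not list Lef1 or Rnf43. Over the 10544 genes found in both, the authors' values had a median absolute difference of 0.0110 from the fit with length offsets and 0.0243 from the fit to summed counts. For Axin2 and Apc that choice sets the value printed, while for Tcf7 the summed-count and deposited values are both 2.65.

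**Figure D4:**
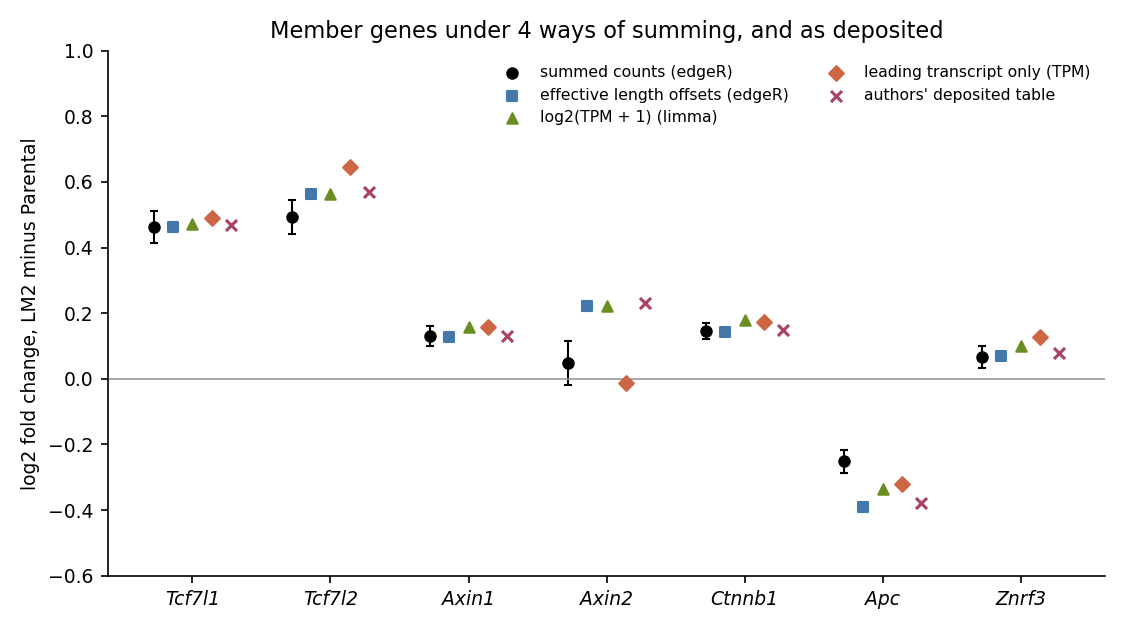
Log2 difference (LM2 minus Parental) of the 7 well-expressed members other than Tcf7 under 4 ways of summing transcripts and in the authors' deposited table, with bars of 1 SE for the fit to summed counts. Axin2 lies at 0.05 from summed counts, at 0.22 with length offsets and at -0.01 for its leading transcript, while the points of Axin1, Ctnnb1 and Tcf7l1 stay close together.

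The rest of the pathway was read from 8 lists of textbook members, 132 genes with the 10 members left out. Of the 77 with enough counts to test, 39 were higher in LM2, 20 were lower and 18 did not pass (edgeR quasi-likelihood test with Benjamini-Hochberg adjustment over all genes tested). The median log2 difference of the 77 was 0.14, beside -0.00 for all genes tested, and 76.6% passed, beside 62.4%. The remaining 55 genes, among them 14 of the 16 secreted and surface inhibitors, were below the count needed.

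Among Wnt ligands, 3 of 9 tested were higher, 2 lower and 4 did not pass, with a median of 0.24. Wnt7b, the most abundant of those named, fell from 186.81 ± 2.42 to 116.4 ± 4.48 CPM (log2 difference -0.68, adjusted p = 6.12e-15). Wnt5b, a ligand best known outside the beta-catenin branch, also fell, with a log2 difference of -0.55. Wnt10b rose by 0.24 to 59.0 CPM (adjusted p = 0.000316). Wnt6 rose by 2.89, but from 0.152 CPM and 19 counts over the Parental libraries to 1.17 CPM and 124 counts. Wnt9a, at 2.45 and 2.66 CPM, did not pass.

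Of the Wnt receptors with enough counts to test, 4 of 5 were higher and 1 lower, with a median of 0.41. Fzd5 rose by 0.73 and Fzd2 by 0.41 on the log2 scale, to 15.9 and 18.7 CPM, and Fzd6 rose by 2.28 from 0.219 to 1.08 CPM. Like Wnt6 and Lgr6, Fzd6 reached 1 CPM in LM2 alone, so it could be named only as a rise. The abundant co-receptors went opposite ways by like amounts. Lrp6 fell by 0.14 from 172.63 to 156.83 CPM, a call that was lost on the TPM scale, and Lrp5, named outside the rule, rose by 0.14 from 152.15 to 167.44 CPM. For Wnt secretion, R-spondins and their Lgr receptors 4 of 5 were higher, none was lower and 1 did not pass, with a median of 0.53. Lgr4, the R-spondin receptor through which Znrf3 and Rnf43 are held in check, rose by 0.53 to 10.7 CPM, Lgr6 by 1.61 to 1.03 CPM and Porcn, the acyltransferase that readies Wnt proteins for secretion, by 0.86 to 2.04 CPM. Wls, the most abundant tested gene of that list and named outside the rule, rose by only 0.17, from 96.9 to 109.31 CPM. Lgr5, at 0.445 and 0.503 CPM, did not pass.

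Of the secreted and surface inhibitors only 2 of 16 could be tested. Kremen1, which removes Lrp6 together with Dkk proteins, was 0.10 higher (adjusted p = 0.0306), a call lost under 10 of the 15 alternatives tried. Apcdd1 did not pass, at 0.948 and 1.17 CPM.

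Around the destruction complex 10 of 21 tested genes were higher, 7 lower and 4 did not pass, with a median of -0.01. Dvl1, a Dishevelled protein that relays the signal from the receptors, rose by 0.64 from 74.8 to 116.69 CPM (adjusted p = 4.8e-08), and its relative Dvl3 rose by 0.36. Gsk3b, the kinase that marks beta-catenin, rose by 0.28 to 212.13 CPM. Apc2, the relative of Apc, fell by 0.41, so both APC genes were lower in LM2. Rnf146, which targets axin for degradation, fell by 0.38, and the ubiquitin ligase Siah1a fell by 0.35. Ppp2ca, a phosphatase subunit at 318.72 and 317.18 CPM, did not pass.

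The nuclear partners of the TCF factors moved both ways. Of 18 tested, 6 were higher, 7 lower and 5 did not pass, with a median of 0.00. Among the Groucho/TLE corepressors that bind TCF proteins, Tle4 rose from 3.15 ± 0.267 to 8.38 ± 0.540 CPM (log2 difference 1.41, adjusted p = 3.16e-10). Tle2 fell from 12.4 ± 1.73 to 3.32 ± 0.444 CPM (-1.90, adjusted p = 5.22e-11), and Tle1 fell by 0.39. Aes, the short TLE relative, fell by 0.93 to 42.8 CPM. Tle3, the most abundant TLE gene of the list and outside the naming rule, rose by 0.22 from 195.34 to 227.45 CPM, so the family split in direction. Ctnnbip1, whose product ICAT blocks the binding of beta-catenin to TCF factors, rose 2.72-fold, from 7.62 ± 0.135 to 20.7 ± 1.05 CPM (adjusted p = 1.78e-14). Hipk2, a kinase that acts on TCF factors, rose 2.90-fold, from 22.0 to 63.9 CPM (adjusted p = 1.8e-17). The coactivator Ep300 did not pass.

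Axin2 was then set beside 27 other genes often listed as Wnt targets. Of the 14 with enough counts, 8 were higher, 2 lower and 4 did not pass, with a median of 0.22. Ccn4 rose 1.95-fold, from 44.3 ± 0.831 to 86.2 ± 3.93 CPM (adjusted p = 1.47e-15), Jun by 0.40 and Myc by 0.29, the last to 701.44 CPM. Ephb3 fell by 0.65 from 1.65 CPM (adjusted p = 0.0375), a call that was lost under 9 of the 15 alternatives tried and turned in direction on log2(TPM + 0.1). Sox9 did not pass. Outside the naming rule, and picked after their values were seen, Nkd1 had 5 counts over the Parental libraries and 43 over the LM2 libraries, and Ephb2 had 112 and 14. Sp5, Notum and Tnfrsf19 had no count in any library. Target genes thus differed in direction among themselves. Axin2 lay below the list's median by summed counts (0.05), but it had been chosen as a gene that did not differ. Its value with length offsets was 0.22, and the list's median was not computed on that scale.

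At cell junctions, where beta-catenin also works, 3 of 5 tested genes were higher, 1 lower and 1 did not pass. Jup, the close relative of beta-catenin, fell by 0.46 from 69.2 to 50.4 CPM, while Ctnnb1 itself was 1.11-fold higher. Ctnnd1 rose by 0.14 and Ctnna1 by 0.09.

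**Figure D5:**
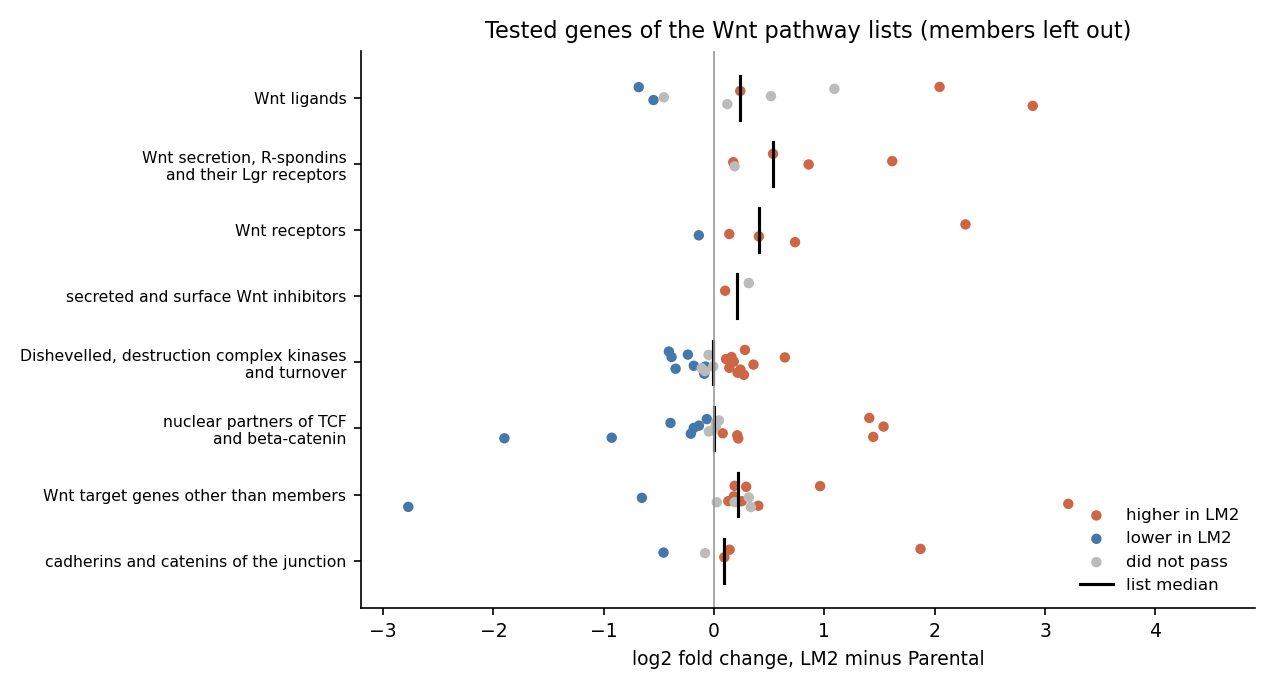
Log2 difference (LM2 minus Parental) of each tested gene in the 8 pathway lists, the members left out, with orange for genes that passed higher in LM2, blue for lower, grey for those that did not pass and a black bar at each list's median. Medians of the receptor and secretion lists lie at 0.41 and 0.53, and the genes furthest from 0 include low-count genes such as Nkd1 and Ephb2.

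Tcf7 and Axin2 both lie on chromosome 11, as do Rnf43 and Znrf3. Of the 4 tested genes on either side of Tcf7 in annotation order, 5 did not pass (Cdkl3, Ppp2ca, Skp1a, Vdac1 and Hspa4), Olfr1372-ps1 and Aff4 rose by 0.45 and 0.25, and Zcchc10 fell by 0.45. The immediate neighbours Skp1a and Vdac1 differed by -0.04 and 0.02, so the Tcf7 difference was not shared by the genes beside it. Around Axin2, Cep112, Gna13 and Prkca rose by 0.87, 0.33 and 0.17, Slc16a6, Helz and Psmd12 fell by 0.55, 0.15 and 0.07, and Amz2 and Arsg did not pass. Over the 1078 tested genes of chromosome 11 the median difference was -0.01 and 62.3% passed.

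The 6 genes whose profile over the 6 libraries was closest to that of Tcf7, among 9424 genes of at least 5 CPM, were Ldb3, Myl9, Ptk7, Car6, Psmb8 and Pdlim4. Closeness was the root mean square distance between log2(CPM + 0.5) profiles centred on the Parental mean, from 0.0509 for Ldb3 to 0.108 for Pdlim4. Ptk7, a receptor-like protein known from planar polarity and Wnt signalling, was at 19.6 and 112.94 CPM. Pdlim4, at 10.3 and 65.2 CPM, lies on chromosome 11 as Tcf7 does, though not among the 4 tested neighbours on either side. With 6 libraries in 2 lines, closeness mostly means a like step between the lines.

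The promoters of the members were searched for the core TCF motif, CTTTGAT or CTTTGAA on either strand (ATCAAAG or TTCAAAG), in RefSeq windows of GRCm38.p6 from 250 bases before to 50 bases after each start. Windows were found for 7 of the 10 members, and 0 of their 14 windows held a match, while 2842 of all 32851 windows (8.65%) did. These letters are absent from those windows, and nothing follows from that about the factors.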

How the data were processed

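RNA sequencing measured expression in 3 Parental and 3 LM2 libraries. The authors quantified reads with kallisto 0.46.2, per the submitters' processing notes, which also name GRCm39, edgeR 3.32.1, FastQC and MultiQC. The authors deposited estimated counts per transcript, not normalized, per the file headers. They also deposited TPM, which kallisto scales by effective transcript length and depth, and the transcript lengths. The authors' deposited comparison table gives log fold changes without stating base or direction. The authors' deposited values were read as log2, LM2 minus Parental, from how closely they track the fits. Neither the transcript set nor the strand setting is stated there.

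Of 117486 transcripts, 116408 (99.1%) were matched by Ensembl identifier to GENCODE M21, giving 35905 genes. The 1078 unmatched transcripts, holding 0.426 to 0.448% of estimated counts, were left out. Estimated counts were summed per gene, rounded and fitted in edgeR 4.0.16 (R 4.3.3; TMM factors, filterByExpr, robust quasi-likelihood test, Benjamini-Hochberg adjustment over 13247 genes, threshold 0.05). TPM was summed per gene. Alternatives used DESeq2 1.42.0, limma 3.58.1 on log2(TPM + 1) and log2(TPM + 0.1), length offsets and other filters or factors. The members and the pathway lists were chosen with earlier results of these data known. Besides the members, the text names up to 3 called rises and 3 called falls per list (1 CPM or more in either line) and the most abundant gene that did not pass, 4 tested neighbours on each side of Tcf7 and Axin2, and the 6 genes most like Tcf7, passing over predicted genes.

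The replicate numbers are not said to pair the libraries, and the main fit did not pair them. Libraries with the same number did not deviate together (correlations of deviations of -0.0937, -0.0026 and -0.00714). Those with different numbers gave -0.0706 to 0.0776. With 3 libraries per line this does not settle whether they were paired. Libraries of a line differed by more than sampling noise (chi-square per degree of freedom 3.041 to 7.447), so none was treated as a repeat deposit of another; whether they are separate cultures is not shown by this.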

Additional observations from a re-analysis of the deposited data

How the results depend on the processing

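The log2 difference of Tcf7 was 2.62 to 2.69 when 1 library was left out, with 2.54 on log2(TPM + 1) and 2.73 for its leading transcript, an alternative added after seeing the data. Axin2 was 0.02 to 0.07 when 1 library was left out, but 0.22 on log2(TPM + 1), 0.25 on log2(TPM + 0.1), 0.22 with effective length offsets and -0.013 for its leading transcript. The difference in the share of Axin2-201 was -13.59 to -9.65 percentage points when 1 library was left out and -5.58 points as a share of estimated counts. Genes called lower in the pathway lists numbered 20 in the edgeR fit and 12 with limma on log2(TPM + 1) or log2(TPM + 0.1). Genes called over all alternatives numbered 6729 (limma on log2(TPM + 0.1)) to 8596 (no low-count filter). With the replicate number as a block 8250 genes were called, against 8272 without it, and among the genes named the block ended the call of Ephb3 only. Ephb3 was 0.036 on log2(TPM + 0.1), a reversal. The cause was not tested for any of these. Depth limits Lef1, Rnf43, the short Axin2 transcripts and the low-count list genes, and the limit given for a library with 0 counts covers counting error only.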
